A study of Homo sapiens with 6 samples.

Results

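The genes here encode the core of Polycomb repressive complex 2 (PRC2), its accessory subunit JARID2, and class I histone deacetylases HDAC1, HDAC2 and HDAC3. They were 10 of the 62260 gene rows of each library, chosen by symbol: EZH2, EZH1, SUZ12, EED, JARID2, RBBP4, RBBP7, HDAC1, HDAC2 and HDAC3. RNA had been sequenced from untreated TYK-nu cells, a human ovarian cancer line, in 2 groups of 3 libraries: ZNFX1 KO, in which the gene of the RNA helicase-like protein ZNFX1 was knocked out, and wild type (WT). Both groups grew in the same medium and belong to 1 batch in the labels, and the labels name neither the knockout method nor the number of clones, so ZNFX1 loss and any other difference between the KO and WT lines cannot be told apart. The libraries are labelled biological replicates, but separate cultures are not mentioned, and each p-value therefore refers to the spread among these 6 libraries. In bulk RNA, fewer cells in a given state and less RNA per cell cannot be told apart.

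PRC2 places methyl groups on lysine 27 of histone H3, a mark of silent chromatin. EZH2 or its paralog EZH1 is the catalytic subunit, SUZ12 and EED are required scaffold and reader subunits, and RBBP4 or RBBP7 binds histones. JARID2 is an accessory subunit that helps recruit the complex. In many tissues EZH2 is the form of dividing cells and a known target of E2F factors, while EZH1 persists in resting cells. HDAC1 and HDAC2 remove acetyl groups from histones within the NuRD, SIN3 and CoREST complexes, and RBBP4 and RBBP7 are also subunits of NuRD and SIN3. HDAC3 acts within the NCoR complex.

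The libraries held 19487939 to 20819174 fragments on gene rows in ZNFX1 KO and 19115530 to 21036063 in WT. ZNFX1 itself was at 103, 70.5 and 75.2 CPM (reads scaled to library size) in ZNFX1 KO 1, 2 and 3, against 130, 208 and 109 CPM in WT 1, 2 and 3. All KO libraries were lower, yet reads of the gene were present in each, and with a log2 fold change of -0.85 (SE 0.27) it missed the threshold of 0.05 (edgeR adjusted p = 0.218). Without WT 3 the value was -1.01 (edgeR adjusted p = 0.0468), in a fit that called 9.02% of all genes. With any other library left out ZNFX1 did not pass, and without WT 2 it was at -0.53 (edgeR adjusted p = 0.507). Of 9 markers of Müllerian epithelium and ovarian carcinoma, KRT18, KRT8 and WT1 were read in every library. PAX8, MUC16, KRT7, CDH1 and MSLN had at most 2 reads in any library and EPCAM at most 34. Of the leukocyte markers, PTPRC had 0 reads, CD3E at most 2 and LYZ 9 to 168. The summed CPM of this list, nearly all LYZ, was 8.15, 2.92 and 2.97 in ZNFX1 KO, against 0.460, 1.01 and 2.83 in WT, and its part in the results was not tested. The 4 endothelial markers were read in all libraries, with a summed CPM of 932 to 1057 in ZNFX1 KO and 735 to 1216 in WT, and VIM was the mesenchymal marker read in quantity, with at most 7 reads for COL1A1, COL1A2 or DCN. WT 2 stood apart in cell cycle and interferon-stimulated genes. Relative to the mean of the 6 libraries, the median log2-CPM of 24 cell cycle genes lay between 0.38 and 0.48 in the KO libraries and was -1.40 in WT 2. That of 19 interferon-stimulated genes lay between -0.71 and -0.11 in the KO libraries and was 1.78 in WT 2.

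The start regions that hold E2F letters are shown, since EZH2 is a known E2F target and cell cycle genes differed between the libraries. The letters of an E2F site were searched as TTCCCGC or TTGGCGC or TTCGCGC or TTGCCGC on either strand, from 250 bases before to 50 bases after each RefSeq start site (GRCh38.p14). They occurred in 4 of the 10 members, and in 13.0% of all 35116 windows of the table. The letters are rich in G and C, and the member windows held 52.3% (EED) to 78.3% (RBBP7) of these bases. The 2 shares were not matched for base composition. A match describes letters, not a bound site. The 30 bases around each match read as follows, 5′ to 3′ on the strand of the gene, with the match in capitals. In RBBP4 2 matches overlap, and that of EZH2 begins 2 bases after the start site.
EZH2, chr7:148884272-148884301, minus strand: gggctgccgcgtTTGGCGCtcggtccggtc
EZH1, chr17:42745138-42745167, minus strand: tgcggggttttgGCGGCAAatgacagtagt
SUZ12, chr17:31936807-31936836, plus strand: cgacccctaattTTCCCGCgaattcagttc
RBBP4, chr1:32651155-32651184, plus strand: ttggctgatgTTGGCGCGAAggtgcgcgag

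EZH2 and EZH1, the alternative catalytic subunits, had fold changes of opposite sign, neither of which passed, and their upstream regions are shown for that reason. Each line ends at the base before the GENCODE 29 gene, with E2F letters in capitals; the match of EZH2 lies beyond its line. The other cell cycle motif searched, the CHR letters TTTGAA or TTCGAA on either strand, was in 1 of the 10 windows, that of SUZ12, and in 16.4% of all windows.
EZH2, chr7:148884322-148884541, minus strand: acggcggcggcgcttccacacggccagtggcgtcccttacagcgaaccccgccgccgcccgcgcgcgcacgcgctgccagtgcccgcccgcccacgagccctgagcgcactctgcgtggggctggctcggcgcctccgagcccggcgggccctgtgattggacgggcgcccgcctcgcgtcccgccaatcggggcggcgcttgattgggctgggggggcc
EZH1, chr17:42745050-42745290, minus strand: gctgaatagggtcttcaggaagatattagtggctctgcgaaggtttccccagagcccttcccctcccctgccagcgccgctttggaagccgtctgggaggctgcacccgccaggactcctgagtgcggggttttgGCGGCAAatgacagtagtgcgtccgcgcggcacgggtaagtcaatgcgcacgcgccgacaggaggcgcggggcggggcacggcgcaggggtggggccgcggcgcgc

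No member passed the test: 0 of 10 were called by edgeR's quasi-likelihood test at an adjusted p of 0.05, 0 by DESeq2 and 0 by limma-voom. Over all 14166 genes tested, edgeR called 103, which is 0.727%, and DESeq2 called 4.09% of its genes. At an unadjusted p under 0.05 there were 5 members, 4 of them higher in ZNFX1 KO (EZH2, RBBP4, HDAC1 and HDAC2) and 1 lower (EZH1), against 15.1% of all genes. In TMM-scaled CPM those 4 higher genes were also the 4 of 10 whose KO libraries all lay above every WT library. Over all genes the share in that direction was 9.39%. Members with every KO library below every WT library numbered 0, against 10.8% of all genes. In either direction that is 4 of 10 members, against 20.2% of all genes. In TPM (abundance scaled for length and depth) WT 3 lay above KO 1 for each of the 4, so their groups overlapped. The TPM values of WT 3 and KO 1 were 18.6 and 16.4 for EZH2 and 50.5 and 47.6 for RBBP4. They were 32.8 and 27.6 for HDAC1 and 19.7 and 15.6 for HDAC2. The median log2 fold change of the 10 was 0.24, with 8 positive, and over all tested genes it was -0.01, with 48.8% positive. The members' median was 0.12 without WT 2, with 7 positive, and 0.46 without WT 3. All 10 passed the filter on low counts, with 1697 (JARID2) to 19581 (RBBP4) reads each over the 6 libraries.

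**Figure D1:**
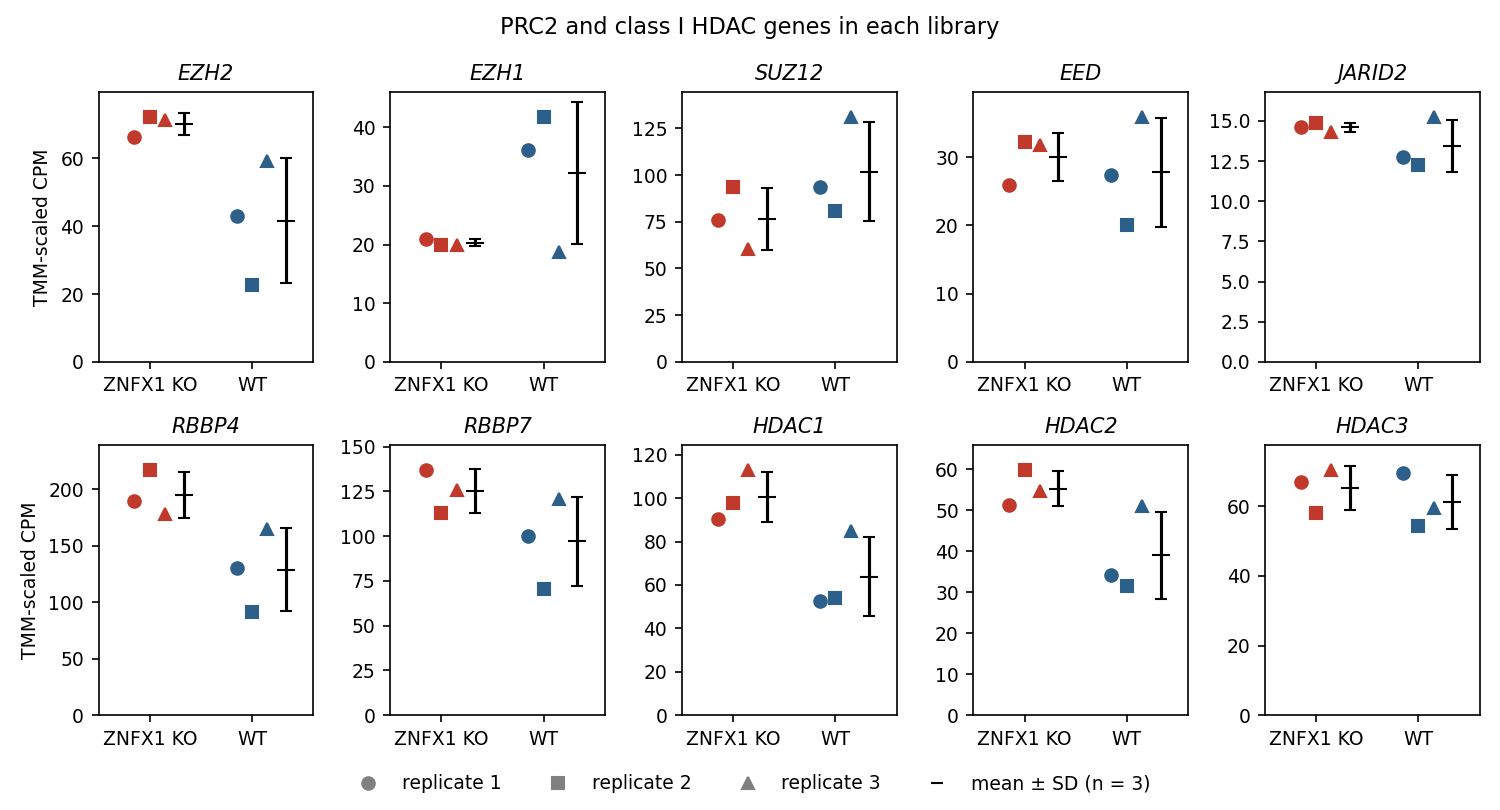
TMM-scaled CPM of each of the 10 genes (vertical axis, from 0) in the 3 ZNFX1 KO libraries (red, left) and the 3 WT libraries (blue, right), with the mean and SD of each group in black. The KO points of EZH2, RBBP4, HDAC1 and HDAC2 all lie above their WT points, of which WT 3 is the nearest to the KO points.

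EZH2 (ENSG00000106462.12, chromosome 7, 148807383 to 148884321, minus strand, GENCODE 29 on GRCh38) had 66.4, 72.3 and 71.4 CPM in ZNFX1 KO 1, 2 and 3, against 43.1, 22.6 and 59.2 CPM in WT 1, 2 and 3. The KO libraries were alike and all higher, and WT 2 was the lowest by far. The means were 70.0 ± 3.20 CPM in ZNFX1 KO and 41.6 ± 18.3 CPM in WT (SD, n = 3 each). EZH2 had a log2 fold change of 0.75 (SE 0.31, 95% interval 0.05 to 1.45, edgeR adjusted p = 0.307), so the difference did not pass over all genes tested. It was 0.46 without WT 2 and 1.11 without WT 3, where it was called (edgeR adjusted p = 0.0456).

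EZH1 (ENSG00000108799.13, chromosome 17, 42700275 to 42745049, minus strand) had 20.97, 20.0 and 19.9 CPM in ZNFX1 KO 1, 2 and 3, against 36.1, 41.8 and 18.7 CPM in WT 1, 2 and 3. The groups overlapped, because WT 3 was below every KO library while WT 1 and WT 2 were well above. The log2 fold change was -0.66 (SE 0.28, 95% interval -1.30 to -0.03, edgeR adjusted p = 0.317). Without WT 3 it was -0.92 and called (edgeR adjusted p = 0.0229), and without WT 2 it was -0.43.

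Within a library the 2 catalytic genes can be compared per length. The ratio of EZH2 to EZH1 in TPM (abundance scaled for length and depth) was 5.881, 6.79 and 6.70 in ZNFX1 KO 1, 2 and 3, against 2.19, 0.985 and 5.895 in WT 1, 2 and 3. EZH2 was thus the more abundant form in every library but WT 2, where the 2 were nearly equal, and WT 3 lay within the range of the KO libraries. EZH2 made up 86.6 ± 0.929% of their summed level per length in ZNFX1 KO and 67.9 ± 18.0% in WT (SD, n = 3 each). The log2 ratio was higher in ZNFX1 KO by 1.47 on average, a difference that did not pass (exact two-sided permutation p = 0.2, adjusted over 4 ratios 0.267, with 0.1 the smallest possible). Without WT 2 the difference was 0.84 and without WT 3 it was 2.13.

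The remaining core subunits showed less. SUZ12 (ENSG00000178691.11, chromosome 17, 31937018 to 32001045, plus strand) had 76.1, 93.6 and 60.3 CPM in ZNFX1 KO, against 93.7, 80.7 and 131 CPM in WT. Its WT high point was WT 3 and its groups overlapped, so it did not follow the pattern of EZH2. The log2 fold change was -0.41 (SE 0.24, 95% interval -0.95 to 0.13, edgeR adjusted p = 0.434). It ranged from -0.57 to -0.17 as libraries were left out, and was -0.17 without WT 3.

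EED (ENSG00000074266.23, chromosome 11, 86244544 to 86278813, plus strand), the subunit that reads the methyl mark, had 26.0, 32.2 and 31.8 CPM in ZNFX1 KO, against 27.4, 20.0 and 35.9 CPM in WT. The KO libraries lay inside the WT range, with WT 2 lowest and WT 3 highest. The log2 fold change was 0.11 (SE 0.23, 95% interval -0.42 to 0.64, edgeR adjusted p = 0.842) and turned to -0.077 without WT 2. JARID2 (ENSG00000008083.14, chromosome 6, 15246296 to 15522040, plus strand) had 14.6, 14.9 and 14.3 CPM in ZNFX1 KO, against 12.8, 12.2 and 15.3 CPM in WT. It varied least between libraries among the PRC2 genes, at a log2 difference of 0.12 (SE 0.18, 95% interval -0.29 to 0.53, edgeR adjusted p = 0.771).

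The histone-binding paralogs were both higher on average in ZNFX1 KO. RBBP4 (ENSG00000162521.19, chromosome 1, 32651142 to 32686211, plus strand) had 189, 217 and 178 CPM in ZNFX1 KO, against 130, 91.3 and 165 CPM in WT. Every KO library was above every WT library, and WT 2 was again the lowest. At a log2 fold change of 0.60 it did not pass (SE 0.23, 95% interval 0.07 to 1.12, edgeR adjusted p = 0.287), and the value was 0.40 without WT 2. RBBP7 (ENSG00000102054.18, chromosome X, 16839283 to 16870414, minus strand) had 137, 113 and 126 CPM in ZNFX1 KO, against 100, 70.8 and 121 CPM in WT. WT 3 lay among the KO libraries here, so the groups overlapped. Its log2 fold change was 0.37 (SE 0.22, 95% interval -0.13 to 0.86, edgeR adjusted p = 0.440), and 0.19 without WT 2. The TPM ratio of RBBP4 to RBBP7 was 1.17, 1.58 and 1.26 in ZNFX1 KO, against 1.13, 1.24 and 1.11 in WT (exact two-sided permutation p = 0.2, adjusted 0.267).

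HDAC1 (ENSG00000116478.12, chromosome 1, 32292086 to 32333635, plus strand) had the smallest p of the 10 genes. It had 90.5, 97.7 and 113 CPM in ZNFX1 KO 1, 2 and 3, against 52.7, 54.0 and 84.9 CPM in WT 1, 2 and 3. All KO libraries were higher, and WT 1 was as low as WT 2, which was not so for EZH2. The means were 100.4 ± 11.6 CPM in ZNFX1 KO and 63.9 ± 18.2 CPM in WT (SD, n = 3 each). The log2 fold change was 0.65 (SE 0.22, 95% interval 0.15 to 1.16), which did not pass (edgeR adjusted p = 0.244, range 0.0246 to 0.570 over 18 alternatives). It was 0.55 without WT 2, and without WT 3 it was 0.93 and called (edgeR adjusted p = 0.0246).

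HDAC2 (ENSG00000196591.12, chromosome 6, 113933028 to 114011308, minus strand), with which HDAC1 pairs in its complexes, had 51.3, 59.9 and 54.6 CPM in ZNFX1 KO, against 34.2, 31.6 and 51.2 CPM in WT. The KO libraries were higher, but KO 1 exceeded WT 3 by very little. Its log2 fold change was 0.50 (SE 0.21, 95% interval 0.02 to 0.99, edgeR adjusted p = 0.318), 0.37 without WT 2, and 0.77 and called without WT 3 (edgeR adjusted p = 0.0340). The TPM ratio of HDAC1 to HDAC2 was 1.77, 1.63 and 2.08 in ZNFX1 KO, against 1.53, 1.71 and 1.66 in WT (exact two-sided permutation p = 0.3, adjusted 0.3). HDAC1 was the more abundant of the pair per length in all 6 libraries.

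HDAC3 (ENSG00000171720.10, chromosome 5, 141620876 to 141636870, minus strand) had 67.0, 58.1 and 70.5 CPM in ZNFX1 KO, against 69.5, 54.2 and 59.6 CPM in WT. The groups overlapped throughout. Its log2 fold change was 0.094 (SE 0.17, 95% interval -0.29 to 0.48, edgeR adjusted p = 0.811). Its share of the summed level of HDAC1, HDAC2 and HDAC3 per length was 34.3, 28.9 and 31.7% in ZNFX1 KO, against 46.9, 41.1 and 32.6% in WT. WT 3 again sat within the KO range. The TPM ratio of HDAC3 to HDAC1 differed by -0.59 on the log2 scale, which did not pass (exact two-sided permutation p = 0.2, adjusted 0.267).

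**Figure D2:**
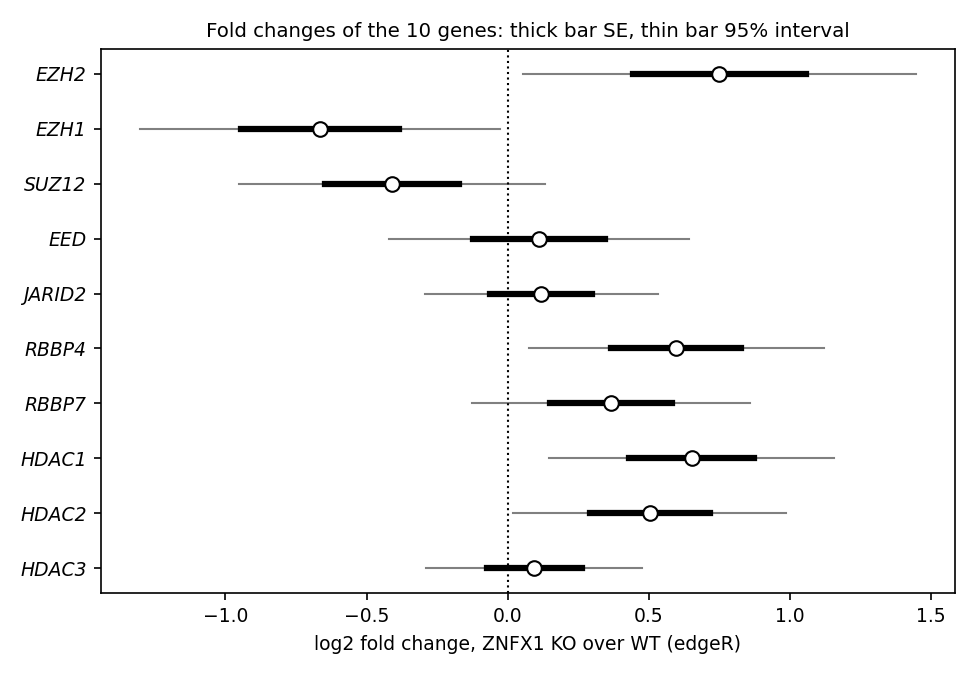
Log2 fold change of ZNFX1 KO over WT (horizontal axis) for each of the 10 genes, from edgeR, with the SE as a thick bar and the 95% interval, not adjusted for the number of genes, as a thin bar. The intervals of EZH2, RBBP4, HDAC1 and HDAC2 lie above 0 and that of EZH1 below 0, although none passed after adjustment over all genes tested.

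The levels of different members can be ordered per length, here as CPM per kilobase of effective length. RBBP4 was the highest and RBBP7 the second in all 6 libraries, at 83.6 ± 5.36 and 63.3 ± 5.94 in ZNFX1 KO and 56.5 ± 11.4 and 49.4 ± 12.6 in WT (SD, n = 3 each). JARID2 was the lowest in all 6, at 2.58 ± 0.0402 in ZNFX1 KO and 2.37 ± 0.293 in WT. HDAC1 came next after RBBP7 in ZNFX1 KO at 51.5 ± 5.91, above HDAC3 at 36.9 ± 3.63. In WT they were at 32.7 ± 9.38 and 34.6 ± 4.40, closer than their spread, with HDAC3 the higher in WT 1 and WT 2. EZH2 and HDAC2 were neighbours in ZNFX1 KO, at 29.3 ± 1.46 and 28.3 ± 2.27, and did not differ beyond their spread. The same held for SUZ12 and EED there, at 18.34 ± 3.90 and 18.33 ± 2.13. In WT, SUZ12 was at 24.4 ± 6.06, HDAC2 at 20.0 ± 5.41, EZH2 at 17.4 ± 7.65 and EED at 16.9 ± 4.98, each within the spread of the next. EZH1 was ninth in 5 libraries and eighth in WT 2, at 4.54 ± 0.131 in ZNFX1 KO and 7.35 ± 2.82 in WT.

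TPM was compared between libraries as an alternative only, since rows under 200 bases of effective length held 56.9, 48.3 and 54.0% of all TPM in ZNFX1 KO 1, 2 and 3, against 58.3, 60.6 and 48.8% in WT 1, 2 and 3. The TPM of the members over their CPM per kilobase was 0.594, 0.726 and 0.635 in ZNFX1 KO, against 0.581, 0.586 and 0.752 in WT, highest in KO 2 and WT 3. EZH2, for example, had 16.4, 22.1 and 19.0 TPM in ZNFX1 KO, against 10.5, 5.54 and 18.6 TPM in WT, and EZH1 had 2.79, 3.25 and 2.83 TPM in ZNFX1 KO, against 4.80, 5.63 and 3.15 TPM in WT.

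**Figure D3:**
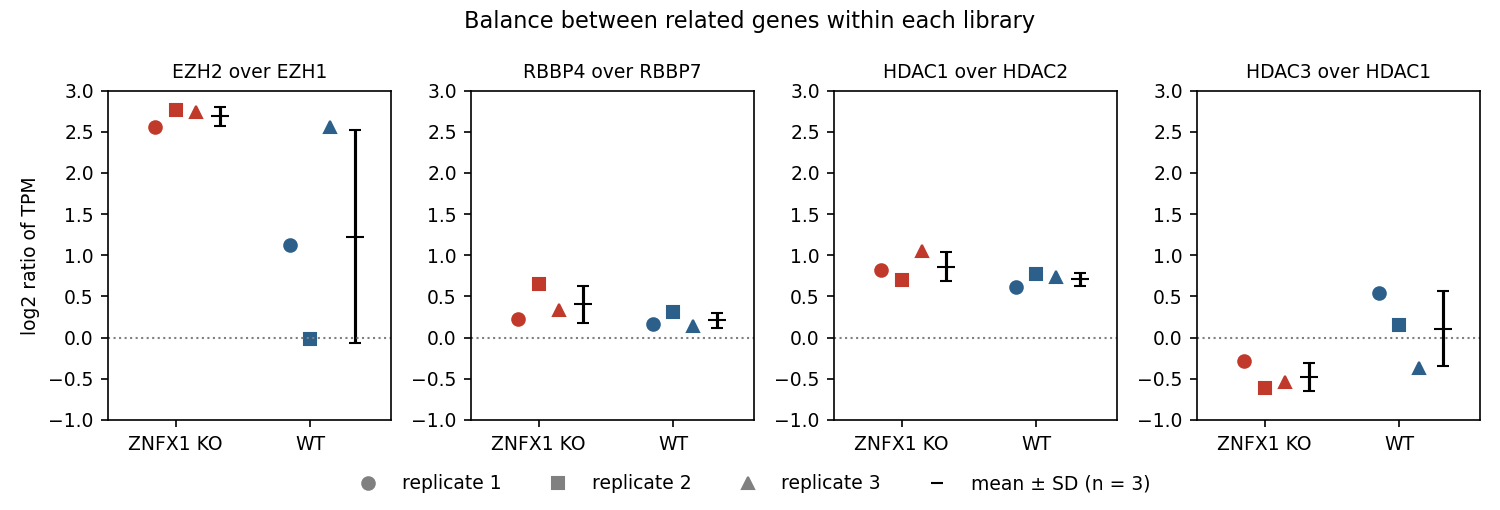
Log2 ratio of TPM between related genes within each library (vertical axis; 0 means equal levels per length), for ZNFX1 KO (red, left) and WT (blue, right), with the mean and SD of each group. The EZH2 to EZH1 ratio is tight in ZNFX1 KO and spread over WT 1, 2 and 3 at 1.13, -0.022 and 2.56, and the groups overlap in all 4 ratios of the gene rows.

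How far the members varied together across libraries was read from their log2-CPM, centred on the mean of the 6 libraries. EZH2 stood at 0.35, 0.47 and 0.46 in ZNFX1 KO 1, 2 and 3, against -0.27, -1.20 and 0.19 in WT 1, 2 and 3. The cell cycle genes had medians of 0.44, 0.38 and 0.48 in ZNFX1 KO, against -0.40, -1.40 and 0.48 in WT. Both were lowest in WT 2 and next lowest in WT 1, while the order of the other 4 libraries differed. RBBP4, RBBP7 and EED were also lowest in WT 2, at -0.77, -0.62 and -0.50, whereas HDAC1 and HDAC2 were low in both WT 1 and WT 2. EZH1 was the mirror image, highest in WT 2 at 0.75 and in WT 1 at 0.53. The interferon-stimulated genes had medians of -0.11, -0.57 and -0.71 in ZNFX1 KO, against 0.01, 1.78 and -0.31 in WT. The part of the cell cycle or interferon genes in the differences of the members was not tested.

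**Figure D4:**
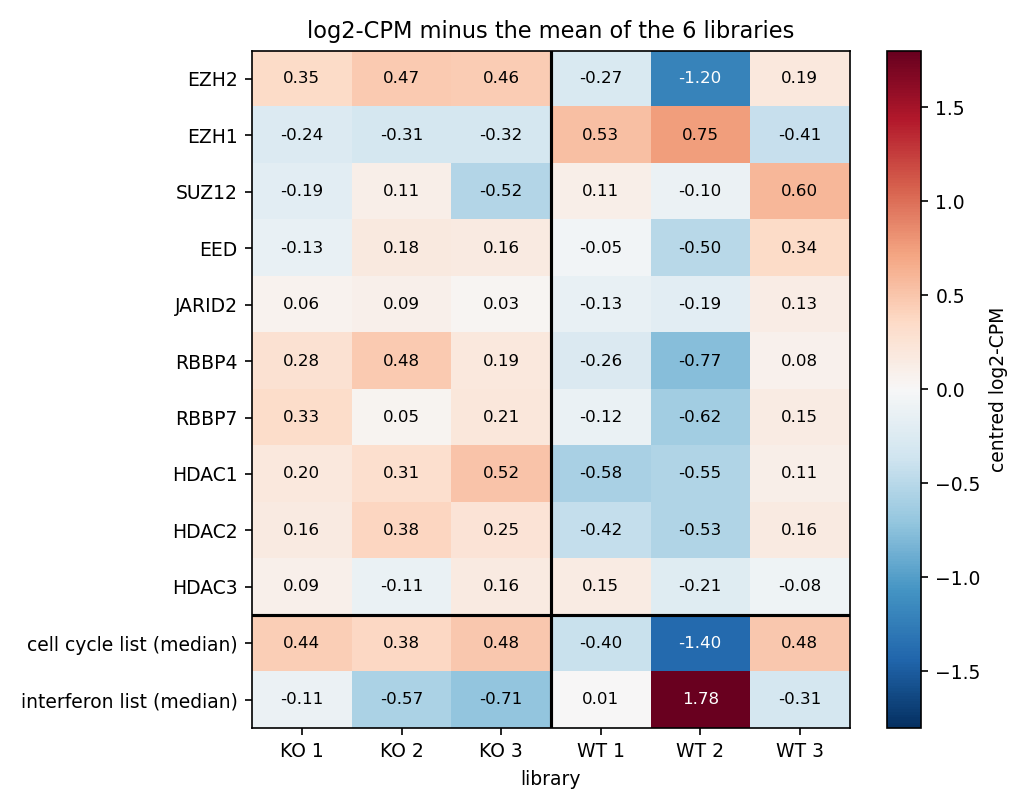
Log2-CPM of each gene minus its mean over the 6 libraries (colour and printed value), with ZNFX1 KO libraries left of WT libraries, and below them the medians of 24 cell cycle and 19 interferon-stimulated genes. WT 2 is the lowest column for EZH2, RBBP4, RBBP7 and the cell cycle genes and the highest for EZH1 and the interferon genes, while WT 3 resembles the KO columns for EZH1, EZH2 and the cell cycle genes.

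The genes most like EZH2 were sought among 7425 well-read protein-coding genes (mean log2-CPM 4 or more), by the root mean square difference of these centred values over 6 libraries. The nearest 5 were MCM8, KNSTRN, TACC3, PARP1 and CDK1, with differences of 0.068 (MCM8) to 0.084 (CDK1), against a median of 0.58 over all genes compared. MCM8 is a helicase of recombination, KNSTRN and TACC3 act at the mitotic spindle, PARP1 responds to DNA breaks and CDK1 drives mitosis. The nearest member to EZH2 was RBBP4, at 0.21 and rank 197, and the farthest was EZH1, at 1.03 and rank 7116. The genes nearest to HDAC1 were CAVIN1, EXOSC3, ZNF544, B3GALNT2 and SAAL1, with differences of 0.066 (CAVIN1) to 0.087 (SAAL1). Of the members HDAC2 was nearest to HDAC1, at 0.13 and rank 34.

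Part of the reads of these genes lay in transcript rows that the deposited tables list apart from the gene row. The gene row held 75.2% of the reads of RBBP4, 82.3% of EZH1, 90.0% of HDAC1, 91.2% of EZH2, 92.2% of HDAC2, 93.6 to 98.4% of RBBP7, HDAC3, EED and SUZ12, and every read of JARID2. The missing reads of RBBP4 were mostly on ENST00000492348.6, a transcript annotated as subject to nonsense-mediated decay, at 23.1, 21.7 and 24.4% of its reads in ZNFX1 KO, against 19.5, 23.2 and 21.8% in WT. For EZH1 they were mostly on retained-intron transcripts, chiefly ENST00000586103.5, at 11.4, 11.1 and 9.48% in ZNFX1 KO, against 10.6, 7.37 and 15.5% in WT. The shares overlapped between groups for both. The larger of the EZH2 decay transcripts, ENST00000492143.5, took 7.46, 6.26 and 5.93% of its reads in ZNFX1 KO, against 5.26, 6.98 and 7.49% in WT, and the groups overlapped. ENST00000483012.1, a smaller decay transcript of EZH2, took 2.21, 0.634 and 0.844% of its reads in ZNFX1 KO, against 3.94, 8.14 and 1.61% in WT, and was highest in WT 2, where it had 42.9 reads, with overlap between the groups. The missing reads of HDAC1 were mostly on ENST00000476391.5, at 4.96, 4.325 and 3.31% in ZNFX1 KO, against 6.98, 10.1 and 6.82% in WT. The shares of this retained-intron transcript did not overlap between the groups. Nor did those of ENST00000463172.5 of HDAC1, at 1.40, 1.38 and 1.19% in ZNFX1 KO, against 3.44, 2.47 and 2.455% in WT. ENST00000525506.1 of RBBP4 was at 0.934, 1.13 and 0.931% in ZNFX1 KO, against 0% in each WT library. ENST00000330735.7 of RBBP7 was at 0.861, 4.55 and 0.373%, against 0.230, 0 and 0%. Low rows of EED (ENST00000525244.5) and HDAC2 (ENST00000425835.6) had 0 reads in ZNFX1 KO and some in every WT library. The share of all transcript rows that separate in this way was not counted. Among tested gene rows it was 20.2% in CPM. With these rows joined to their genes, the log2 fold changes of the 10 members differed little and 0 were called. EZH2 was at 0.72, EZH1 at -0.61 and HDAC1 at 0.57, against 0.65 on the HDAC1 gene row alone. The groups then no longer overlapped in the log2 ratios of EZH2 to EZH1 (difference 1.25) and RBBP4 to RBBP7 (difference 0.19), each at the smallest possible exact two-sided permutation p of 0.1, not adjusted. RBBP7 overlaps TXLNG on the opposite strand, which had 3447 reads against 13477 for RBBP7, and strand use in counting is not given in the sources used here. SUZ12P1, a partial copy of SUZ12, had 170 reads against 10889 for SUZ12. The other overlapping or copied rows held at most 86 reads.

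Partners and related enzymes of the members, and HOX, cell cycle and interferon-stimulated genes, were read from 13 lists. Of their tested genes, 152 were not themselves members. Of these 152, 0 passed by edgeR and 0 by limma-voom, and DESeq2 called 2, among them the interferon-induced GTPase MX1, which was lower. At an unadjusted p under 0.05 edgeR had 1 higher and 21 lower, DESeq2 7 and 21, limma-voom 8 and 12, and edgeR without WT 2 had 0 and 5. The interferon-stimulated list held 10 of the 21 lower genes of edgeR with all 6 libraries. Over all 14166 genes tested edgeR had 839 higher and 1302 lower. Of the 8 PRC2 accessory subunits 7 were tested and 0 passed, with 3 positive and a median log2 fold change of -0.07. PHF1, which binds methylated H3 tails, was at -0.53 (SE 0.33), and EPOP and AEBP2 were at -0.28 (SE 0.19) and 0.27 (SE 0.23). Among 22 PRC1 subunits, the other Polycomb complex, 0 passed and the median was 0.06. BMI1, a core PRC1 subunit, had 46.8, 48.7 and 32.2 CPM in ZNFX1 KO, against 62.7, 61.1 and 72.1 CPM in WT, with a log2 difference of -0.62 (edgeR adjusted p = 0.220, SE 0.20). KDM2B, which brings a variant PRC1 to CpG islands, was at -0.54 (SE 0.18, edgeR adjusted p = 0.240) and SCMH1 at -0.39 (SE 0.19). KO libraries of BMI1 and KDM2B lay below every WT library, but neither passed.

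Of 6 partners in the NCoR complex, in which HDAC3 acts, 0 passed, with 3 positive and a median of 0.10. The scaffold NCOR1 was at 0.29 (SE 0.19) and GPS2, another subunit, at 0.44 (SE 0.19), both with KO libraries above every WT library.

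Of 15 other deacetylases 0 passed, with 12 negative and a median of -0.37, or -0.23 without WT 2. Without WT 3 the median was -0.36 and 4 were called lower, against 4.93% of all genes in that fit. HDAC8, the remaining class I enzyme, had 16.8, 16.2 and 17.6 CPM in ZNFX1 KO, against 21.6, 21.2 and 22.4 CPM in WT, with no overlap and little spread (log2 fold change -0.37, SE 0.16, edgeR adjusted p = 0.329). With transcript rows joined HDAC8 was at -0.56 (SE 0.16, edgeR adjusted p = 0.149). The cytoplasmic tubulin deacetylase HDAC6 was at -0.82 (SE 0.34) and SIRT2 at -0.64 (SE 0.25), and the mitochondrial SIRT4 at -1.14 (SE 0.48). HDAC6 resembled EZH1 in its libraries, with 18.5, 13.1 and 15.3 CPM in ZNFX1 KO, against 32.7, 36.5 and 13.7 CPM in WT. Over the NuRD list 0 of 10 tested genes passed (median 0.18, with MTA2 at 0.34, CHD3 at 0.24 and CDK2AP1 at 0.46). None of 12 SIN3 partners (median -0.12, with SIN3B at -0.33, ARID4B at 0.45 and SAP30 at -0.28), 7 CoREST partners (median -0.08, with RCOR2 at -0.995, PHF21A at -0.72 and RCOR3 at -0.15) or 3 MiDAC partners (median 0.15, with TRERF1 at 0.23, DNTTIP1 at 0.15 and MIDEAS at -0.12) passed by edgeR. The 3 genes of the CAF-1 and HAT1 list, which share RBBP4 or RBBP7, were all positive (CHAF1B 0.64, CHAF1A 0.65, HAT1 0.38) with 0 passing. Their median was 0.64, or 0.31 without WT 2, and without WT 3 it was 1.17 with all 3 called, against 9.02% of all genes in that fit. CAF-1 and HAT1 genes, like the cell cycle list, were lowest in WT 2, at a median of -1.25.

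Enzymes that oppose PRC2 at lysine 27 had negative values in 4 of 4 cases, with 0 passing and a median of -0.29. Without WT 2 the median was -0.094 and 2 of the 4 were positive. The demethylases KDM6B and KDM6A were at -0.65 (SE 0.37) and -0.48 (SE 0.35), and the acetyltransferase EP300 at -0.088 (SE 0.16). The HOX genes, textbook Polycomb targets, were tested where expressed: 20 of 39 passed the filter on low counts and 0 of the 20 passed the test, with 8 positive and a median of -0.05. HOXA4 had the smallest p, at 1.995 ± 0.459 CPM in ZNFX1 KO and 3.59 ± 0.713 CPM in WT (SD, n = 3 each; log2 fold change -0.84, SE 0.32, edgeR adjusted p = 0.285). HOXC9 and HOXD8 followed at -0.73 (SE 0.39) and -0.49 (SE 0.27). Antisense genes run through the HOX clusters, so these values are uncertain without stated strand use. Of 24 cell cycle genes 0 passed, and all 24 were positive with a median of 0.71 (CCNB1 0.70, CENPF 0.77, CDK1 0.64). With WT 2 left out the median was 0.32 and 22 of the 24 were positive. Without WT 3 their median was 1.25 and 12 were called higher, against 4.09% of all genes in that fit. Of 19 interferon-stimulated genes 0 passed, and 19 were negative with a median of -1.20 (IFIH1 -2.10, IFI6 -2.11, MX1 -2.08). With WT 2 left out the median was -0.38 and 3 of the 19 were positive. Without WT 3 their median was -1.53 and 5 were called lower, against 4.93% of all genes in that fit.

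The calls of the members depended on WT 3. Without it, edgeR called 4 of the 10, EZH2, HDAC1 and HDAC2 as higher and EZH1 as lower, against 9.02% of the 14585 genes tested then (4.09% higher and 4.93% lower). With any other library left out 0 were called, and without WT 2 the log2 fold changes of EZH2, RBBP4 and RBBP7 were smaller, at 0.46, 0.40 and 0.19. HDAC1 moved least among the higher genes when WT 2 was left out, to 0.55. Without WT 3, edgeR also called 28 of 153 genes of the other lists, 16 higher and 12 lower.

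**Figure D5:**
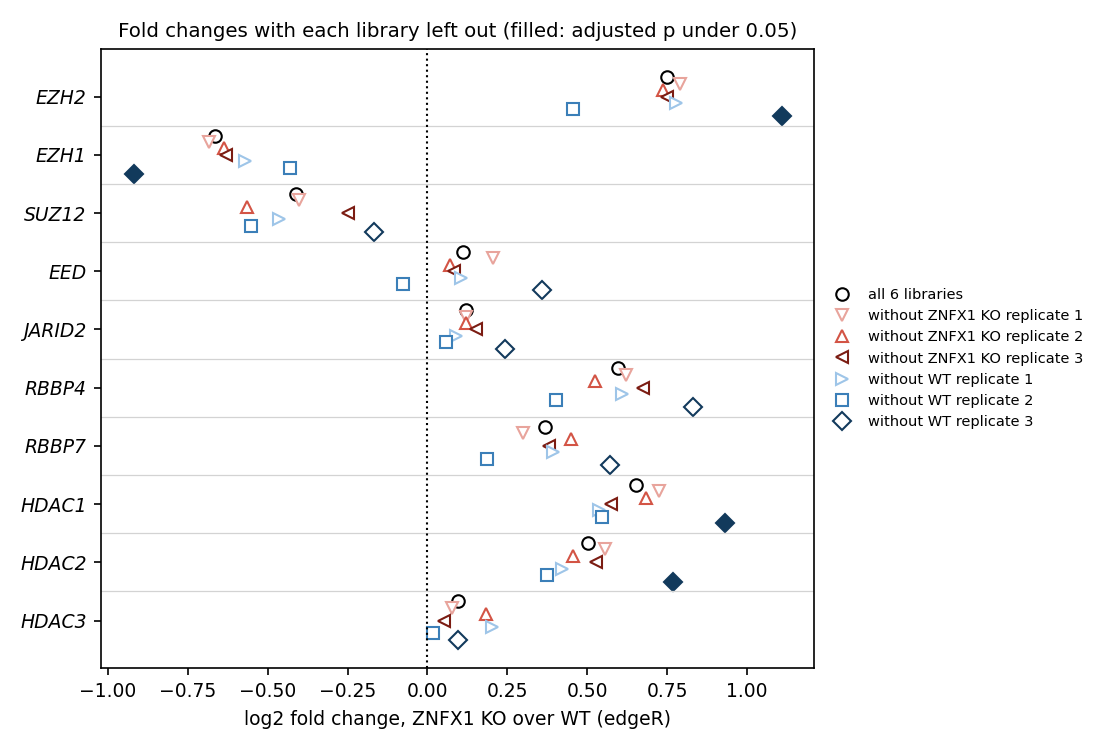
Log2 fold change of ZNFX1 KO over WT from edgeR (horizontal axis) for each of the 10 genes with all 6 libraries and with each library left out, filled where the adjusted p is under 0.05. The filled points are EZH2, EZH1, HDAC1 and HDAC2 without WT replicate 3, and EED changes sign without WT replicate 2.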

How the data were processed

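RNA of 3 ZNFX1 KO and 3 WT libraries (stranded total RNA kit, per the labels) was used. The deposited tables hold estimated counts of fragments and TPM values that the authors made with Salmon, per the labels. FastQC, Trimmomatic and DESeq2 are also named in the submitters' processing notes. Not given in the sources used here are the build, the annotation and the strand setting. Gene rows (62260 of 197169) were named from a gene table, which matched all 62260, and the members were placed with GENCODE 29 (GRCh38). The other 134909 rows are transcripts not joined to genes, with 9.93 to 10.7% of fragments.

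Estimated counts were rounded, filtered with filterByExpr (14166 genes, at least 99.8% of gene fragments), scaled by TMM (factors 0.958 to 1.04) and tested with edgeR 4.0.16 (quasi-likelihood, two-sided, genotype only) in R 4.3.3, with Benjamini-Hochberg adjustment over all genes tested and a threshold of 0.05. SE is the log2 fold change over the root of F, and 95% intervals use the test's degrees of freedom. Log2-CPM used a prior count of 2. Alternatives used DESeq2 1.42.0 and limma 3.58.1, other scalings, filters and length terms, log2(TPM + 1) and log2(TPM + 0.1), a replicate block, joined rows and each library left out. Scripts were tested on simulated data. No pair of libraries was a duplicate (chi-square over its degrees of freedom 30.3 or more).

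The members, lists and tests were chosen with earlier results of these data known. Named genes were all members, ZNFX1, HDAC8, and in each list up to 3 called per direction and the 3 smallest p. The 5 genes nearest to EZH2 and to HDAC1 were named by the rule given with them. Some genes of the lists are not reported here.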

Additional observations from a re-analysis of the deposited data

How the results depend on the processing

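The direction of all 10 members was the same in 12 of 12 alternatives that used all 6 libraries, and 0 of these 120 values were called (smallest adjusted p 0.116, HDAC1 with DESeq2). With single libraries left out, log2 fold changes ranged from 0.46 to 1.11 for EZH2, -0.92 to -0.43 for EZH1, -0.57 to -0.17 for SUZ12, -0.077 to 0.36 for EED, 0.059 to 0.24 for JARID2, 0.40 to 0.83 for RBBP4, 0.19 to 0.57 for RBBP7, 0.54 to 0.93 for HDAC1, 0.37 to 0.77 for HDAC2, 0.016 to 0.20 for HDAC3 and -1.03 to -0.53 for ZNFX1. EED was reversed without WT 2 (-0.077), the cause of which was not tested. Members called ranged from 0 to 4 of 10, genes of the other lists from 0 to 28 of 153, and all genes from 2 (without KO 2) to 1315. Each highest count was without WT 3, where 9.02% of all genes were called. Of the 28 list genes 16 were higher and 12 lower. The log2 differences of ratios ranged from 0.84 to 2.13 for EZH2 over EZH1, 0.068 to 0.29 for RBBP4 over RBBP7, 0.057 to 0.23 for HDAC1 over HDAC2 and -0.82 to -0.37 for HDAC3 over HDAC1. Counts per length give the same ratios as TPM by construction, within rounding.

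The count over all genes, 103, was 602 without a filter, 579 with DESeq2, 48 and 66 with limma on log2(TPM + 1) and log2(TPM + 0.1), and 187 with joined rows. With single libraries left out, list medians ranged from -0.20 to 0.053 for PRC2 accessory subunits, -0.026 to 0.094 for PRC1, -0.13 to 0.16 for NCoR partners, 0.14 to 0.28 for NuRD, -0.17 to -0.053 for SIN3, -0.17 to -0.021 for CoREST, 0.036 to 0.21 for MiDAC and -0.20 to -0.0084 for HOX genes. The ranges were wider for cell cycle genes (0.32 to 1.25), CAF-1 and HAT1 (0.31 to 1.17) and interferon-stimulated genes (-1.53 to -0.38). They were also wider for the enzymes that oppose PRC2 at lysine 27 (-0.40 to -0.077). For other deacetylases the range was -0.44 to -0.23. List genes called were 7 without a filter and 2 with DESeq2. With the replicate block, calls were 14 over all genes and 0 members, and same-numbered libraries deviated with correlations of 0.129, -0.0405 and 0.00691, so the numbers are not shown to pair the samples. The block changed no call of a member. The member with the fewest reads, JARID2, had 1697 over the 6 libraries, and the common biological coefficient of variation was 0.262.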
